A study of Mus musculus with 137 samples.

Results

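Lamp1, Snx20, Snx18 and Rac1 are 4 of the 34573 genes counted in macrophages grown from mouse bone marrow, and they code for a lysosomal membrane protein, a pair of sorting nexins and a small GTPase. They were chosen by their measured levels, for higher counts in macrophages that carry the F121A change in Beclin1 than in their littermate controls, so their values in that comparison are a description with no test. All 4 passed the filter on low counts in each of the 3 cohorts. The study compared macrophages with altered Beclin1 with control macrophages, at rest and after activation. Marrow of mice aged 7 weeks was cultured with M-CSF at 20 ng/ml for 7 days, and the cells then received LPS at 100 ng/ml with IFN-gamma at 100 ng/ml for 0, 6 or 24 h. In cohorts KO1 and KO2, Beclin1flox/flox-LysM-Cre+ cells (KO) were set against Beclin1flox/flox-LysM-Cre- cells (WT), so both genotypes carry the floxed alleles. LysM-Cre acts in cells of the myeloid lineage, and the floxed gene may persist in cells where the recombinase did not act. In cohort KI, Beclin1F121A/F121A cells (F121A) were set against cells of littermate controls labelled WT. KO1 has 3 cultures per genotype and time, each with 3 repeats (54 libraries), KO2 has 8 libraries per group, or 7 in WT at 24 h (47 libraries), and KI has 6 libraries per group (36 libraries). For KO2 and KI the labels do not say whether libraries of a group came from separate mice or cultures, so p-values measure only the spread between these libraries. Levels are counts scaled to the library's total in genes (CPM), and changes between groups are log2 fold changes from edgeR with their standard error.

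Beclin 1 is a subunit of the lipid kinase complexes that start autophagosomes and mature endosomes, and lysosomes are where both routes end. LAMP1 is a heavily glycosylated protein of the lysosome's limiting membrane, and LAMP2 is its close relative. Sorting nexins bind phosphoinositides of endosomes through a PX domain: SNX18, of the SNX9 subfamily with an SH3 and a BAR domain, shapes membrane tubules and takes part in forming autophagosomes, and SNX20 binds the cytoplasmic tail of the selectin ligand PSGL-1. Rac1 drives membrane ruffling and phagocytosis through actin, and with Rac2 it activates the phagocyte NADPH oxidase.

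In GENCODE vM21 on GRCm38, the build named mm10 in the submitters' processing notes, Lamp1 lies at chr8:13159161-13175338 on the plus strand. Snx20 lies at chr8:88626563-88636128, Snx18 at chr13:113592179-113618564 and Rac1 at chr5:143503634-143528036, all on the minus strand. The reads carry no strand, and exons overlap those of a gene on the other strand for Lamp1 (Grtp1, 177 bases) and Rac1 (Daglb, 2309 bases). Grtp1 was at most 1.08 CPM on average in any KI group, far below Lamp1. Daglb, an enzyme that makes the endocannabinoid 2-AG, averaged 190 CPM in F121A and 193 CPM in WT at rest, a ratio of 0.984. At 6 h and 24 h Daglb averaged 4.08 and 5.02 CPM in F121A and 3.54 and 3.55 CPM in WT, below Rac1. How many reads of the shared exons were counted for either gene was not tested. RefSeq promoters (GRCm38.p6) were found for Lamp1 and Snx18, 2 of the 4. They are shown 5′ to 3′ up to the base before the transcription start because many promoters of lysosomal genes hold the E-box CACGTG, which is in capitals. Lamp1 is chr8:13158911-13159160 on the plus strand and Snx18 is chr13:113618565-113618814 on the minus strand.
Lamp1 promoter: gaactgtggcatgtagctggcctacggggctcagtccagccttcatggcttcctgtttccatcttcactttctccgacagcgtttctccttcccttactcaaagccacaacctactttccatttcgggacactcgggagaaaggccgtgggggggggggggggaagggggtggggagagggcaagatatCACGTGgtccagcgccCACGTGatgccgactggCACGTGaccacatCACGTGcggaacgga
Snx18 promoter: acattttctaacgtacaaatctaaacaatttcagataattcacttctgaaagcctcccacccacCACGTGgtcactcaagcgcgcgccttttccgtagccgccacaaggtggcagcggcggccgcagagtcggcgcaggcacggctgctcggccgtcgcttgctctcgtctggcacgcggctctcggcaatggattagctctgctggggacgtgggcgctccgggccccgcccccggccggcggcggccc
The 250 bases before Lamp1 hold CACGTG 4 times, with first bases 61, 45, 28 and 15 bases before the start, and those before Snx18 hold it 1 time, 186 bases before the start. The motif reads the same on both strands. Over 32851 mouse promoters of the same length, 6.02% hold it at least 1 time and 7 (0.0213%) hold it 4 times or more. It is in 4 of 30 promoters (13.3%) of other lysosomal membrane proteins and 2 of 25 (8%) of other sorting nexins. These matches describe the letters only.

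The libraries held 1898574 to 6579185 counts (KO1), 1448218 to 15627379 counts (KO2) and 3574158 to 11786453 counts (KI). Becn1, the targeted gene, was at 0.115, 0.115 and 0.153 times its WT mean CPM in KO2 KO cells at 0, 6 and 24 h, at 0.391, 0.318 and 0.4 times in KO1, and at 0.99, 0.999 and 0.952 times in F121A, where an amino-acid change need not alter the RNA. Macrophage markers were high in all KI groups (7 of 8 listed genes were found, all above 1 CPM), and markers of B cells, T and NK cells, mast cells and red cells summed to at most 2.34 CPM in KI libraries at rest. In the same libraries dendritic cell and stromal markers summed to at most 6.87 and 6.5 CPM. Monocyte markers summed to 96.7 to 182 CPM in F121A and 163 to 190 CPM in WT at rest. Neutrophil and megakaryocyte markers are given below. Xist exceeded the Y-linked Ddx3y in all 23 WT libraries of KO2 and in none of its 24 KO libraries, so a difference by genotype and one by sex cannot be told apart in KO2. All KO1 libraries had Ddx3y above Xist and all KI libraries had Xist above Ddx3y. The labels of 1 library in KO1 and 1 in KI disagree on time between fields, and the titles were followed.

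Lamp1 had the largest difference at rest. It stood at 2212 to 3975 CPM (median 3019) in the 6 F121A libraries and at 172 to 333 CPM (median 241) in the 6 WT libraries of KI. At 6 h the F121A libraries ranged from 949 to 1556 CPM (median 1387) and WT from 162 to 519 CPM (median 291), and at 24 h they ranged from 1154 to 1991 (median 1807) and from 506 to 1181 (median 753). Every F121A library was above every WT library at 0 and 6 h, and at 24 h 5 of 6 were, with F121A replicate 6 (1154 CPM) inside the WT range. Mean levels were 3089 ± 697 and 242 ± 64 CPM at rest (SD, n = 6 each), which is 12.8 times, then 4.23 times at 6 h and 2.13 times at 24 h. The edgeR log2 fold changes were 3.62 ± 0.26, 2.11 ± 0.24 and 1.12 ± 0.24. In CPM, F121A was lower after activation (1325 ± 221 CPM at 6 h) and WT was higher at 24 h (786 ± 235 CPM). CPM over time depends on the scaling. By library totals the median KI WT gene was at -1.19 and -0.84 (log2) at 6 h and 24 h. In the edgeR fit above, with no test, Lamp1 in WT was at 1.59 ± 0.24 and 2.58 ± 0.25 against 0 h. No such comparison over time was made for F121A. Over all genes tested in KI, edgeR with Benjamini-Hochberg adjustment called 2.94%, 11.5% and 7.2% at 0, 6 and 24 h, and every F121A library was above every WT library for 1.3%, 3.44% and 1.7%. These shares are given as background only, because this contrast chose the genes. Lamp2, which shares Lamp1's place in the lysosomal membrane, averaged 1287 CPM in F121A and 1457 CPM in WT at rest (log2 fold change -0.23 ± 0.13, edgeR adjusted p = 0.507). At 24 h Lamp2 rose in F121A, at 1837 ± 146 against 1126 ± 321 CPM (0.74 ± 0.13, edgeR adjusted p = 1.0e-04), with 6 of 6 libraries above all WT libraries.

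Snx20 was the scarcest of the 4 in KI WT cells and was higher in F121A at all 3 times. Its F121A libraries ranged from 10.1 to 45.8 CPM (median 25.4) at rest, from 15 to 47.7 (median 36.3) at 6 h and from 24.4 to 129 (median 100) at 24 h. WT libraries ranged from 1.43 to 4.2 (median 3.59), from 1.37 to 4.99 (median 2.53) and from 5.12 to 21 (median 7.43). The groups did not overlap at any time, and F121A replicate 1 was the lowest F121A library at each. Mean ratios were 9.02, 12.1 and 8.57, and log2 fold changes 3.16 ± 0.43, 3.69 ± 0.43 and 3.10 ± 0.36. Snx20 is thinly counted where it is low, with 3 counts in the lowest library of the series. Its closest relative, Snx21, was at 1.09, 1.25 and 1.14 times WT and passed the edgeR test at no time.

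Snx18 was higher in F121A before activation and at 6 h, and level at 24 h. At rest its F121A libraries ranged from 28.3 to 51 CPM (median 38.3) and WT from 7.25 to 12 CPM (median 10.6). At 6 h they ranged from 31.4 to 61.2 (median 47.8) and from 8.44 to 24.2 (median 14.4), with no overlap at either time. At 24 h all 6 F121A libraries (44.6 to 70.3 CPM, median 55.4) lay inside the WT range (33.1 to 104 CPM, median 54.2). Log2 fold changes were 1.88 ± 0.23, 1.75 ± 0.22 and -0.00 ± 0.20. WT cells took up most of the change over time, from 10.1 ± 1.91 to 58.4 ± 23.9 CPM, while F121A went from 37.9 ± 8.48 to 56.7 ± 9.4 CPM (SD, n = 6). Snx9 and Snx33, which complete the subfamily with an SH3 domain, were at 1.35 and 1.01 times WT at rest and passed the edgeR test at no time.

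Rac1 was 3.42, 3.28 and 3.36 times as high in F121A as in WT at 0, 6 and 24 h. The F121A libraries ranged from 57.3 to 316 CPM (median 102), from 26.5 to 108 (median 54.1) and from 31.6 to 101 (median 76). WT libraries ranged from 33.6 to 48.7 (median 36.3), from 15 to 21.4 (median 18.2) and from 16.3 to 22.7 (median 21.5). The groups did not overlap at any time, and the F121A spread was wide, with an SD of 96 CPM on a mean of 133 CPM at rest against 5.82 on 38.8 in WT. Replicate 1 was again the lowest F121A library at each time, and replicate 5 alone, at 316 CPM, was far above the rest at 0 h. Log2 fold changes were 1.88 ± 0.35, 1.77 ± 0.36 and 1.79 ± 0.35, and the first was 1.16 without replicate 5. Rac2, the main Rac of blood cells, fell in F121A at rest, from 344 ± 18.7 to 289 ± 67.7 CPM (-0.31 ± 0.09, edgeR adjusted p = 0.0335), and did not pass the test at 6 h or 24 h. Without replicate 5 the adjusted p for Rac2 was 0.14.

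**Figure D1:**
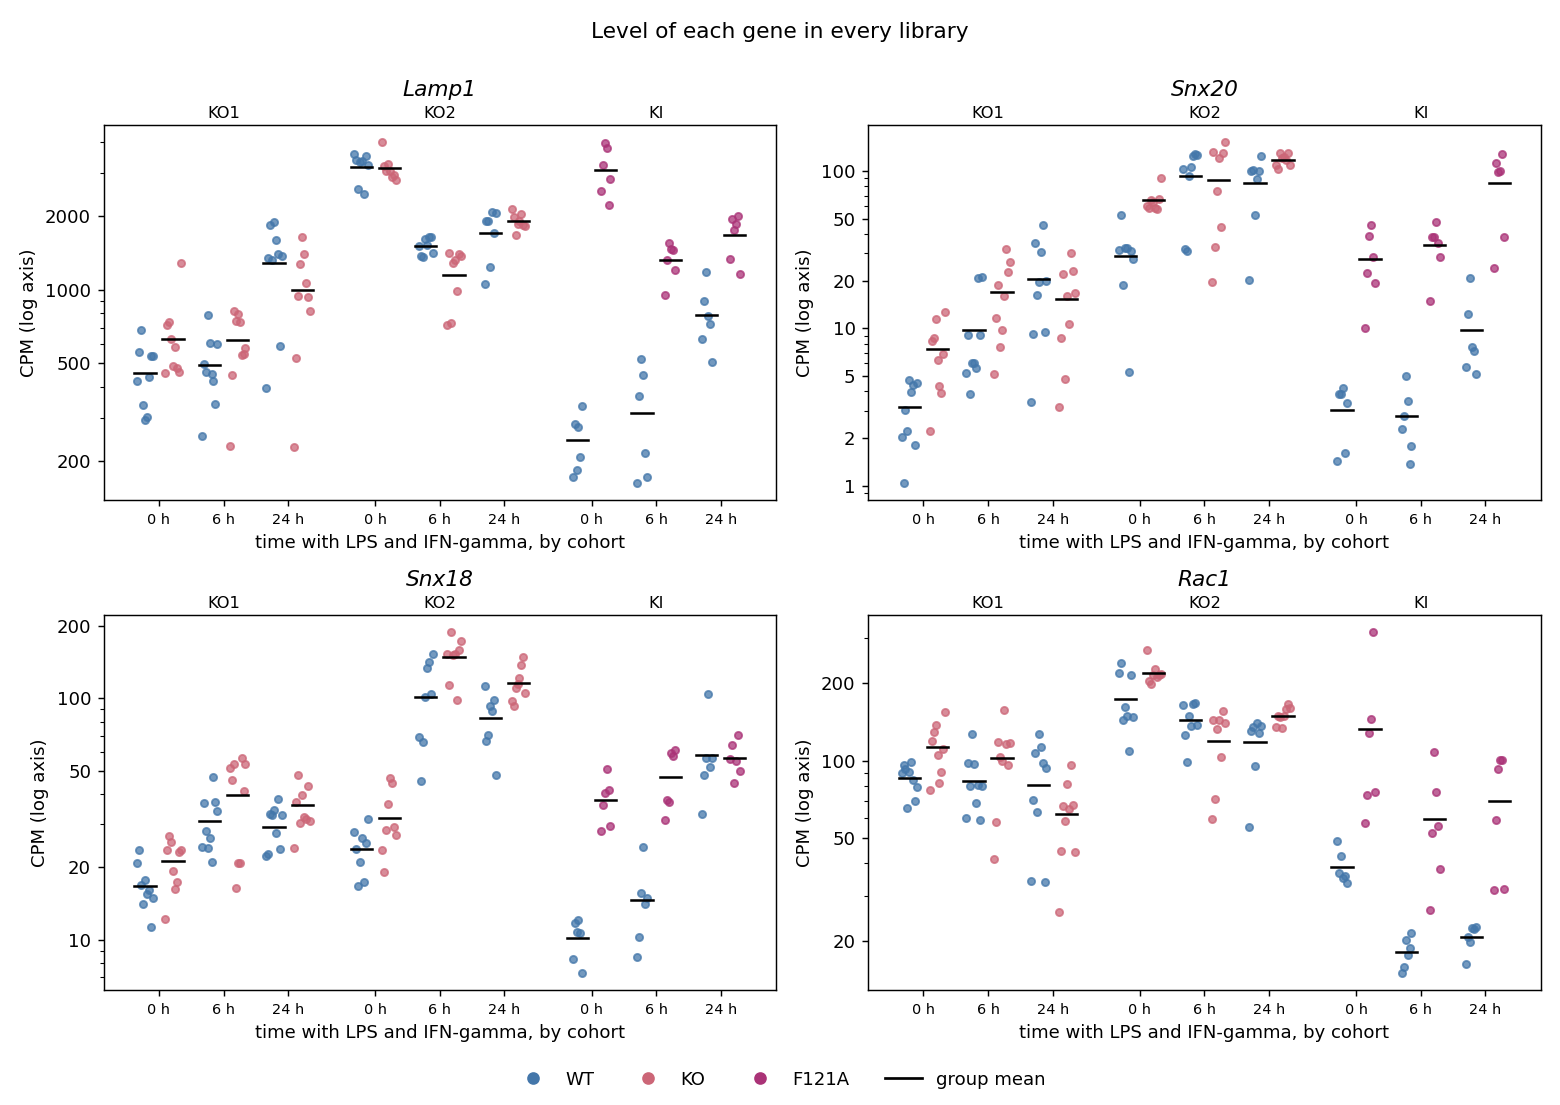
CPM of Lamp1, Snx20, Snx18 and Rac1 on a log axis, 1 point per library, by cohort, time and genotype, with a bar at the group mean (for KO1 the mean of 3 cultures). The F121A points stand above the KI WT points without overlap except for Lamp1 and Snx18 at 24 h, and Lamp1 in KO2 WT cells (2449 to 3583 CPM at rest) is at the F121A level.

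Compared per kilobase of exon, which allows genes to be set against each other, resting KI WT cells held Lamp1 at 90.5, Rac1 at 8.62, Snx18 at 1.93 and Snx20 at 0.473 CPM per kb. In resting F121A cells the levels were 1155, 29.5, 7.25 and 4.26 CPM per kb, in the same order. Lamp2 stood at 152 CPM per kb in WT and 135 in F121A, so Lamp1 was below Lamp2 in KI WT cells and above it in F121A cells. Rac2, at 111 and 93.2 CPM per kb, exceeded Rac1 in both. Some other measured features also differed between the genotypes in these resting libraries, in part with overlap. The summed level of the macrophage markers was 64788 to 99558 CPM in F121A and 101390 to 105782 in WT (medians 91052 and 103677). Lyz2 made up most of that sum (medians 75389 and 87687 CPM). Lyz2 was at 0.842 times WT, with 6 of 6 libraries lower, and did not pass the test (-0.29 ± 0.09, edgeR adjusted p = 0.0998). The macrophage markers were not summed without Lyz2. Neutrophil markers (9 of 9 found) summed to 20 to 40.2 CPM in F121A and 30.2 to 57.4 in WT. Megakaryocyte markers (3 of 3 found, 1 above 1 CPM) summed to 28.2 to 37.2 and 17.7 to 23.4. The part of these features in the 4 differences was not tested. In bulk RNA such as this, fewer cells of a type and less RNA per cell cannot be told apart.

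The level of Lamp1 and Snx20 in resting control cells differed about as much between cohorts as between F121A and its littermates. At rest, Lamp1 averaged 242 ± 64 CPM in KI WT, 455 ± 129 in KO1 WT (n = 3 cultures) and 3179 ± 427 in KO2 WT (n = 8). The F121A mean was 12.8 times the first, 6.79 times the second and 0.972 times the third. The 8 resting KO2 control libraries (2449 to 3583 CPM) lay above every resting control library of the other cohorts, and 3 of 6 F121A libraries lay within their range. At 6 h and 24 h the F121A mean was 0.878 and 0.981 times that of KO2 WT.

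Snx20 followed Lamp1 in this. Its resting means were 3.04 in KI WT, 3.15 in KO1 WT and 29 CPM in KO2 WT, and 6 of 6 F121A libraries lay within the KO2 WT range of 5.25 to 53 CPM. At 24 h the means were 9.82, 20.6 and 84.3 CPM, beside an F121A mean of 84.2. At 6 h KO2 WT, at 93.1 CPM, was above F121A, at 33.7. Snx18 differed less between controls at rest (10.1, 16.7 and 23.7 CPM), and F121A, at 37.9, was 1.59 times KO2 WT and 2.26 times KO1 WT. At 6 h the KO2 controls, at 101 CPM, were above F121A, which was at 0.467 times their level.

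For Rac1, it was the KI controls that stood apart. Their means of 38.8, 18.1 and 20.7 CPM at 0, 6 and 24 h were the 3 lowest of the 18 groups, and all other groups averaged 59.5 CPM or more. KO1 WT held 85.8, 83.5 and 80.5 CPM and KO2 WT 174, 144 and 118 CPM. F121A was at 1.54, 0.712 and 0.865 times KO1 WT and at 0.763, 0.414 and 0.591 times KO2 WT, so that at 6 h and 24 h the F121A mean was above that of its own controls and below those of KO1 and KO2. The cohorts are separate experiments, so no test was made between them. Controls of KI and KO2 had Xist above Ddx3y and those of KO1 had Ddx3y above Xist. Controls of KO1 and KO2 carry the floxed alleles. The part of sex, of the floxed alleles or of other features of a cohort in these levels was not tested. Ordered by mean, the 18 groups overlapped with their neighbour (mean ± SD) in 16 of 17 steps for Lamp1, Snx18 and Rac1 and 15 of 17 for Snx20. The single clear step of Lamp1 fell below the trio of resting KO2 WT, KO2 KO and F121A cells, and that of Rac1 fell between KI WT at rest and the activated KI controls.

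Deletion of Beclin1 was compared in KO1 and KO2, whose values the rule for choosing the 4 genes did not use, although results of all cohorts were known when they were chosen. Only KO cells carry LysM-Cre, so an effect of the deletion and one of Cre cannot be told apart. Lyz2, the locus of the LysM-Cre driver, was at 0.634, 0.482 and 0.486 times WT in KO1 at 0, 6 and 24 h. In KO2 it was at 0.394, 0.355 and 0.407 times WT. In KO1 none of the 4 passed at any time. By edgeR with Benjamini-Hochberg adjustment 0 of 4 were called at 0, 6 and 24 h, where 0.0219%, 0.0219% and 0.0073% of all genes were called. At an unadjusted p under 0.05 there were 1, 0 and 0, and DESeq2 and limma-voom also called 0. At rest the 3 KO cultures were above the 3 WT cultures for each of the 4 genes. This was also so for Rac2 and Snx21, and not for Lamp2, Snx9 or Snx33. The share of all KO1 genes with such a gap is not given here, so the gap cannot be called particular to the 4 genes. Lamp1 was at 583 to 677 CPM in KO and 310 to 558 in WT, and Snx20 at 6.36 to 8.43 and 2.11 to 3.73. Snx18 was at 20.7 to 21.6 and 14.4 to 20.1, and Rac1 at 108 to 116 and 79.1 to 93 CPM. The 4 genes also varied together between repeats of a culture, so these gaps are not separate observations. The largest, in Snx20, was 1.10 ± 0.51 on the log2 scale (edgeR adjusted p = 0.791), and without the filter on low counts it was called (adjusted p = 0.0248).

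In KO2, 1 of the 4 genes was called at each time, a different one each time, against 8.28%, 15.4% and 11.3% of all genes. Since KO2 genotypes also part by Xist and Ddx3y, a difference of sex cannot be told apart from these. Snx20 was higher in KO at rest. The 8 KO libraries ranged from 57.7 to 90.7 CPM (median 61.9) and the 8 WT libraries from 5.25 to 53 (median 31.2), without overlap. The log2 fold change was 1.0 ± 0.33 (edgeR adjusted p = 0.0437). This call sat at the threshold, since it was kept in 4 of 16 fits that left out 1 library (adjusted p from 0.0223 to 0.103), and DESeq2 gave 0.0537. Lamp1 fell at 6 h, from 1353 to 1644 CPM (median 1515) in WT to 717 to 1415 CPM (median 1302) in KO, with 5 of 8 KO libraries below all WT libraries. Its log2 fold change of -0.59 ± 0.16 (edgeR adjusted p = 0.00579) was called in all 16 fits that left out 1 library. Snx18 rose at 24 h, from 48.3 to 112 CPM (median 89) to 92.7 to 148 CPM (median 112), with 4 of 8 KO libraries above all WT libraries. Its log2 fold change was 0.50 ± 0.15 (edgeR adjusted p = 0.0207), and the adjusted p was 0.0636 without WT replicate 9, 0.0867 with library totals as scaling and 0.0724 with libraries summed in threes. Rac1 was called at no time, with log2 fold changes of 0.18 ± 0.17, -0.47 ± 0.17 and 0.32 ± 0.18 (edgeR adjusted p = 0.615, 0.0555 and 0.283). It was called at 6 h in some other fits, such as without the filter on low counts (-0.41, adjusted p = 0.0376 by edgeR). Rac2 fell at 6 h in KO (-0.41 ± 0.09, edgeR adjusted p = 7.9e-04), and Lamp2 was called at no time. Whether the effect of the deletion differs from that of F121A was not tested.

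**Figure D2:**
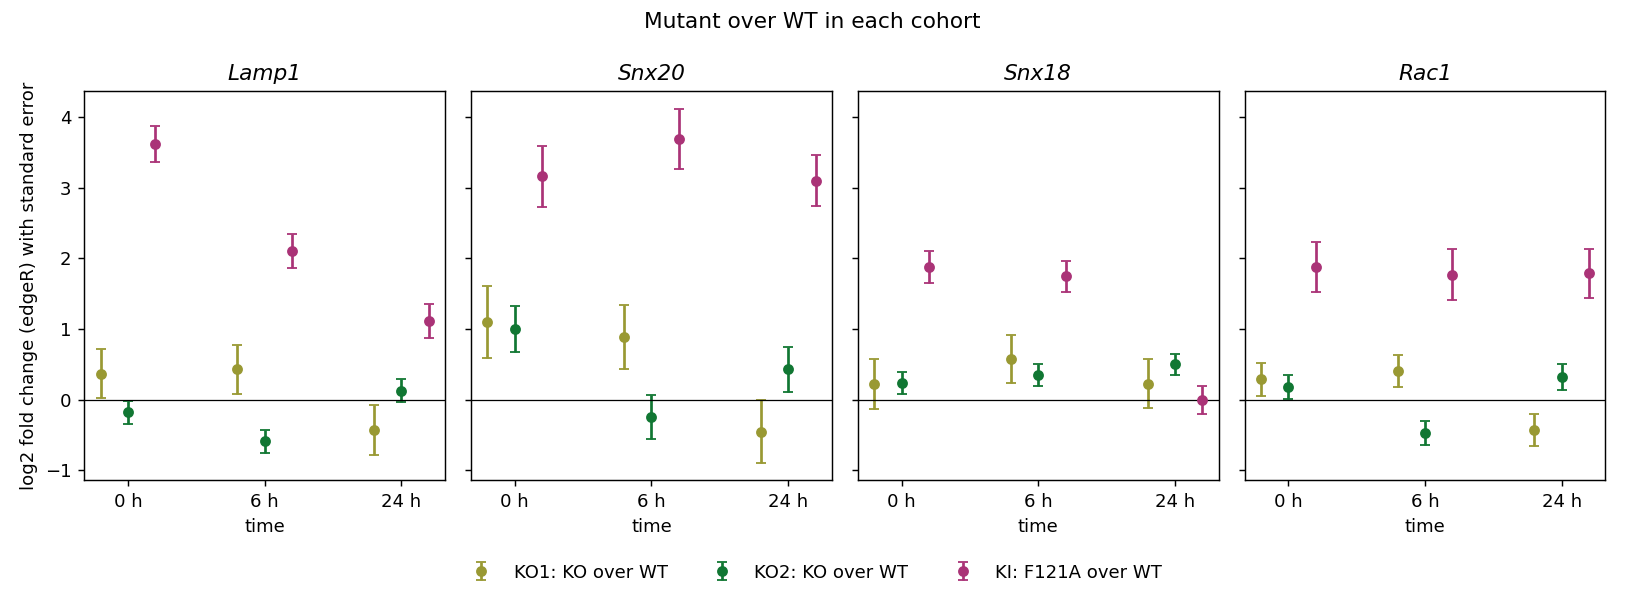
Log2 fold change of mutant over WT (edgeR, bars are 1 standard error) for each gene at 0, 6 and 24 h in KO1, KO2 and KI. The KI values run from -0.00 to 3.69 and are shown as the values that chose the genes, while KO1 and KO2 values stay between -0.59 and 1.10.

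Within KO2 a joint test of 6 h and 24 h called a genotype difference that changed with time for 1 of the 4 genes, Rac1. Relative to 0 h its log2 fold change moved by -0.65 at 6 h and by 0.13 at 24 h (joint edgeR test, adjusted p = 0.0439, n = 7 or 8 libraries per group). The share of all KO2 genes that passed this test is not given here, so 1 of 4 has no background beside it. Lamp1 had the same shape, -0.41 and 0.31 (adjusted p = 0.0639 by edgeR), and Snx20 changed by -1.24 and -0.57 (adjusted p = 0.13 by edgeR). For Snx18 the adjusted p was 0.702, and in KO1 it was 1 for all 4 genes. How far the 6 h shift in KO2 rests on single libraries was not tested. KO replicates 1, 4 and 7 at 6 h held the lowest Lamp1 (717, 731 and 990 CPM), the lowest Snx20 (19.7, 33 and 44.4 CPM) and the lowest Rac1 (59.7, 70.9 and 104 CPM) of that group. Their Snx18 was not low in replicates 1 and 4, at 153 and 188 CPM. Their totals were 6042256, 4117158 and 5250139 counts, the second being the lowest of the group. Such libraries were also found in KO2 WT. Replicates 2 and 4 of WT at 6 h held the lowest Snx20 (32.2 and 30.9 CPM) and Rac1 (126 and 99.4 CPM) of their group. WT replicate 1 at 24 h held the lowest Lamp1, Snx20 and Rac1 of its group (1053, 20.2 and 55.5 CPM).

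How far single libraries with the same culture number differ can be read from KO1, where each culture has 3 repeats at each time. Snx20 was among the genes with the widest repeats. The SD of its log2 level between repeats of a culture was 0.75, larger than for 99.4% of the 10612 genes tested in all cohorts, and Lamp1, at 0.56, was above 96.2%. Rac1, at 0.48, was above 84.6%, and Snx18, at 0.29, above only 19.3%; the median gene had 0.38. The relatives of the 4 genes were tighter in part, with 0.17 for Lamp2 and 0.27 for Rac2, while Snx33 had 0.58.

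Single cultures show what this means. In WT culture S33 at 24 h the 3 repeats held Lamp1 at 395, 1343 and 1830 CPM, Snx20 at 3.41, 9.24 and 35 CPM and Rac1 at 34.1, 70.6 and 107 CPM, in that culture 4.64-fold, 10.3-fold and 3.12-fold from lowest to highest. KO culture S36 held Lamp1 at 227, 524 and 942 CPM at 24 h and at 230, 449 and 817 CPM at 6 h. The widest repeats of Snx18 were 12.2, 23.5 and 26.9 CPM in culture S36 at rest, 2.21-fold. Over the 18 cultures and times, repeats were more than 2-fold apart in 5 for Lamp1, 14 for Snx20, 2 for Snx18 and 6 for Rac1, with a median span of 1.62, 2.57, 1.39 and 1.68-fold. The labels do not say in what step the repeats part. The SD between single repeats of a culture was 0.56, 0.75 and 0.48 for Lamp1, Snx20 and Rac1, and 0.29 for Snx18. The SD between cultures of a group, each taken as the mean log2 level of its 3 repeats, was 0.45, 0.58, 0.29 and 0.37. A mean of 3 repeats varies less than a single repeat, so the SDs are not on equal terms. Set beside these spreads, F121A exceeded KI WT in mean log2 level by 3.68, 2.21 and 1.11 for Lamp1, 2.73, 3.19 and 2.91 for Snx20, 1.80, 1.66 and 0.03 for Snx18 and 1.51, 1.53 and 1.54 for Rac1.

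**Figure D3:**
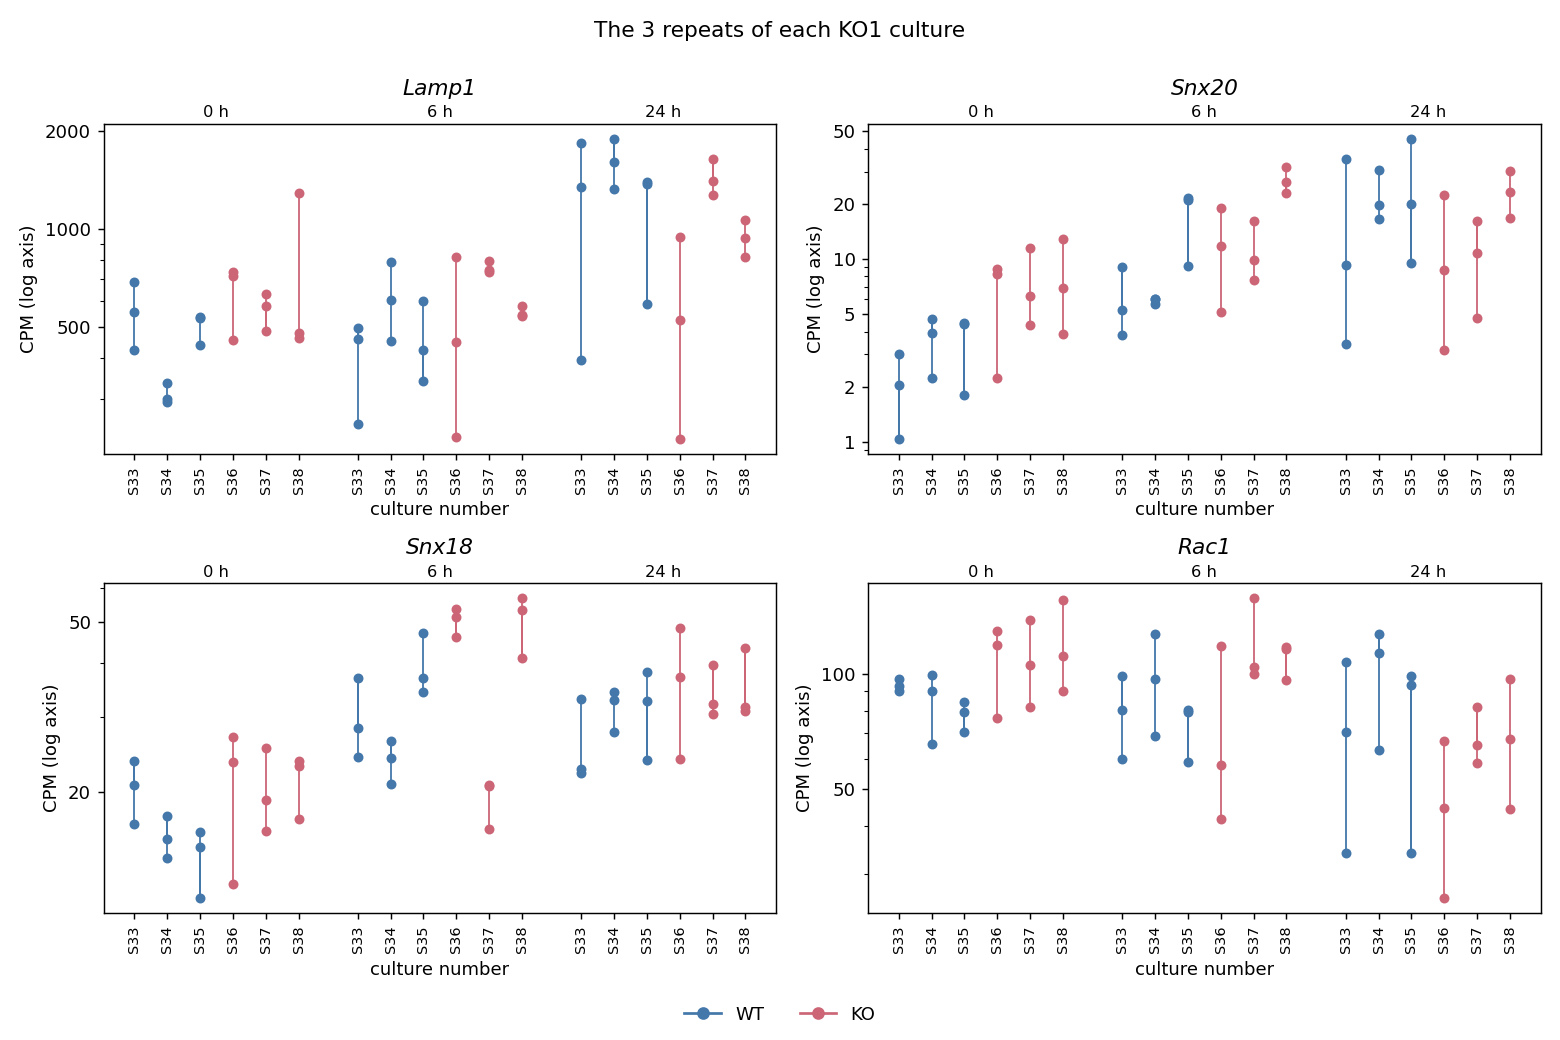
CPM on a log axis of the 3 repeats of each KO1 culture, joined by a line, by time and genotype. Lines are long for Snx20 (up to 10.3-fold) and Lamp1 (up to 4.64-fold) and short for Snx18 (at most 2.21-fold).

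Repeats were also measured for the genes with every F121A library above every WT library. Their median repeat SD was 0.39 for the 147 at rest, 0.32 for the 390 at 6 h and 0.27 for the 193 at 24 h, beside 0.38 for all genes. Such sets favour genes that vary little between libraries. These medians therefore cannot show whether genes higher in F121A have wide repeats. Between libraries of a group the SD was 0.26 for Lamp1, 0.77 for Snx20, 0.40 for Snx18 and 0.35 for Rac1 in KO2, and 0.44, 0.68, 0.39 and 0.58 in KI.

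Lamp1, Snx20 and Rac1 varied together between libraries of the same culture or group. Across the deviations of the 54 KO1 libraries from their culture's mean, Pearson r was 0.84 for Lamp1 with Rac1, 0.84 for Snx20 with Rac1 and 0.76 for Lamp1 with Snx20. Snx18 was coupled less, at 0.51 with Lamp1, 0.70 with Snx20 and 0.65 with Rac1. In KO2, around the means of its groups (47 libraries), the first 3 values were 0.88, 0.87 and 0.78, but Snx18 had -0.09 with Lamp1, 0.21 with Snx20 and 0.00 with Rac1. In KI (36 libraries) Lamp1 with Snx20 had 0.71 and Snx20 with Rac1 0.59, while Lamp1 with Rac1 had 0.19. The points of a cohort share library preparation and base composition of the transcripts, and no p is given. Among their relatives, Lamp1 with Lamp2 had 0.07, 0.03 and -0.04 in KO1, KO2 and KI, and Rac1 with Rac2 -0.22, -0.40 and -0.28. Snx20 with Snx21 had 0.20, 0.21 and -0.05. Snx18 had positive values with Snx9 in each cohort (0.33, 0.53 and 0.32), and with Snx33 it had 0.40 and 0.37 in KO1 and KO2 and -0.28 in KI. Snx33 also had 0.36 with Lamp1, 0.46 with Snx20 and 0.44 with Rac1 in KO1, which the other cohorts did not repeat (-0.29 to 0.15). Depth was weakly related to the 4, with r between -0.10 and 0.26 against the log2 total in the 3 cohorts. The main axis of variation between KO1 repeats, a component over 5825 genes that holds 21.3% of their variance, had r of 0.226 with Lamp1, 0.042 with Snx20, -0.065 with Snx18 and 0.117 with Rac1. Snx20 is GC-rich, at 59.9% GC (higher than 96.6% of genes), whereas Lamp1, Snx18 and Rac1, at 51.6%, 52.1% and 48.3%, are near the median of 49.6%.

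**Figure D4:**
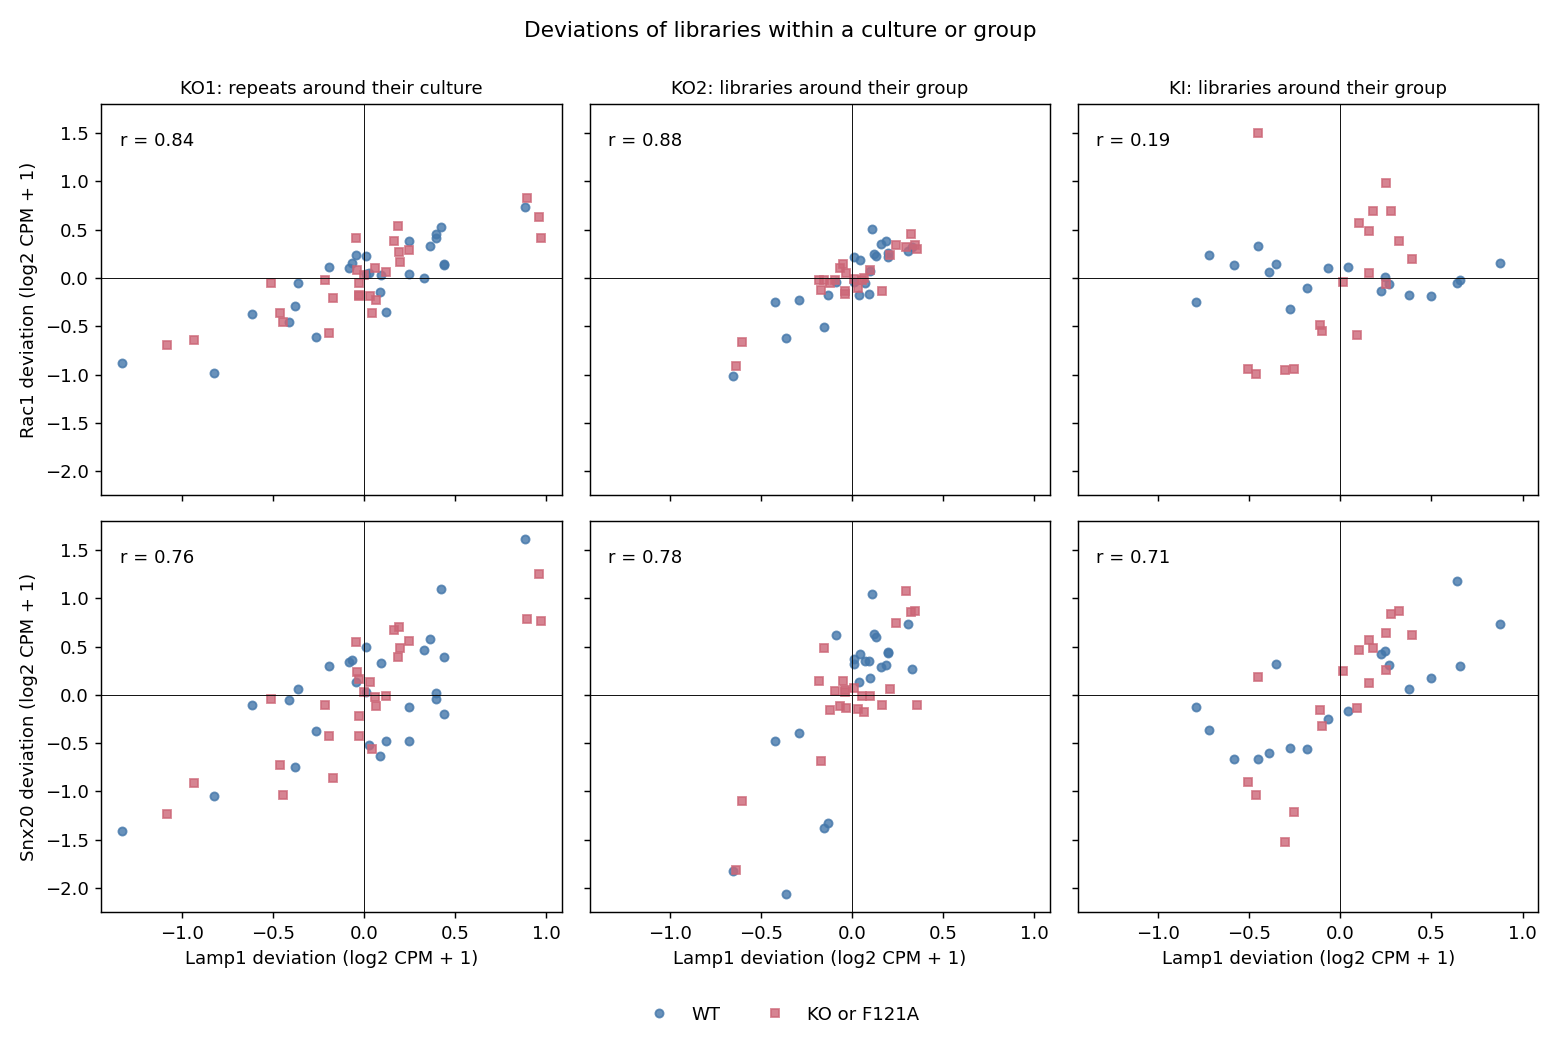
Deviation of each library from the mean of its culture (KO1) or group (KO2, KI) in log2(CPM + 1), for Rac1 (top) and Snx20 (bottom) against Lamp1, with Pearson r in each panel. Points lie along a line in KO1 and KO2 (r of 0.76 to 0.88) and for Snx20 in KI (0.71), but not for Rac1 in KI (0.19), where the highest Rac1 point is F121A replicate 5 at 0 h.

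Activation moved the genes in WT cells, relative to the typical gene. In KO1, edgeR with TMM scaling called 4 of 4 genes higher at both 6 h and 24 h, where 56.7% and 41.9% of all genes changed. Snx20 rose most, from 3.15 ± 0.899 CPM to 20.6 ± 5.57 at 24 h (log2 fold change 3.74 ± 0.51, edgeR adjusted p = 8.5e-06). Lamp1 rose from 455 to 1285 CPM at 24 h (2.53 ± 0.37, edgeR adjusted p = 2.1e-05). Without culture S34 the adjusted p was 0.161 for Lamp1 at 6 h and 0.0607 for Rac1 at 24 h. In KO2, 70.8% and 59.3% of all genes changed. Snx18 rose from 23.7 ± 5.16 to 101 ± 39 CPM at 6 h (2.91 ± 0.16, edgeR adjusted p = 2.2e-23) and Snx20 from 29 ± 13.5 to 93.1 ± 40 CPM (2.50 ± 0.33, edgeR adjusted p = 1.7e-09). Lamp1 went the other way, from 3179 CPM at rest to 1508 at 6 h (-0.25 ± 0.16, edgeR adjusted p = 0.153) and 1705 at 24 h (-0.40 ± 0.16, edgeR adjusted p = 0.03). Rac1 rose at 6 h (0.57 ± 0.17, edgeR adjusted p = 0.00296) and not at 24 h. In KI the log2 fold changes, given with no test, were 1.59 ± 0.24 and 2.58 ± 0.25 for Lamp1, 1.05 ± 0.55 and 2.64 ± 0.45 for Snx20, 1.73 ± 0.24 and 3.41 ± 0.23 for Snx18, and 0.10 ± 0.36 and -0.03 ± 0.35 for Rac1.

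These values depend on the scaling. Scaled by library totals, the median gene of KO1 was at -1.11 and -1.14 at 6 h and 24 h, that of KO2 at -0.93 and -0.47 and that of KI at -1.19 and -0.84. On that scale Rac1 fell in KO2 at 24 h (-0.56, edgeR adjusted p = 0.00184). It did not pass the test in KO2 at 6 h (-0.28, edgeR adjusted p = 0.0927) or in KO1 at 6 h and 24 h (-0.04 and -0.09, edgeR adjusted p = 0.883 and 0.707), and in KI, with no test, it was at -1.11 and -0.91. In KO1 and KO2 Snx18 and Snx20 were still called higher at both times, with Snx18 at 0.89 and 0.81 in KO1 and 2.10 and 1.80 in KO2. In KI, again with no test, Snx18 was at 0.53 and 2.53 and Snx20 at -0.16 and 1.74. At 24 h Lamp1 still went opposite ways, higher in KO1 and lower in KO2 (-0.90). At 6 h Lamp1 was called lower in KO2 on that scale (-1.08, edgeR adjusted p = 8.8e-12). In KO1 it was not called at 6 h (0.12, edgeR adjusted p = 0.752). With the GC trend of each library removed, Lamp1 in KO2 was at 0.53 at 6 h (edgeR adjusted p = 0.0164) and at -0.00 at 24 h.

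**Figure D5:**
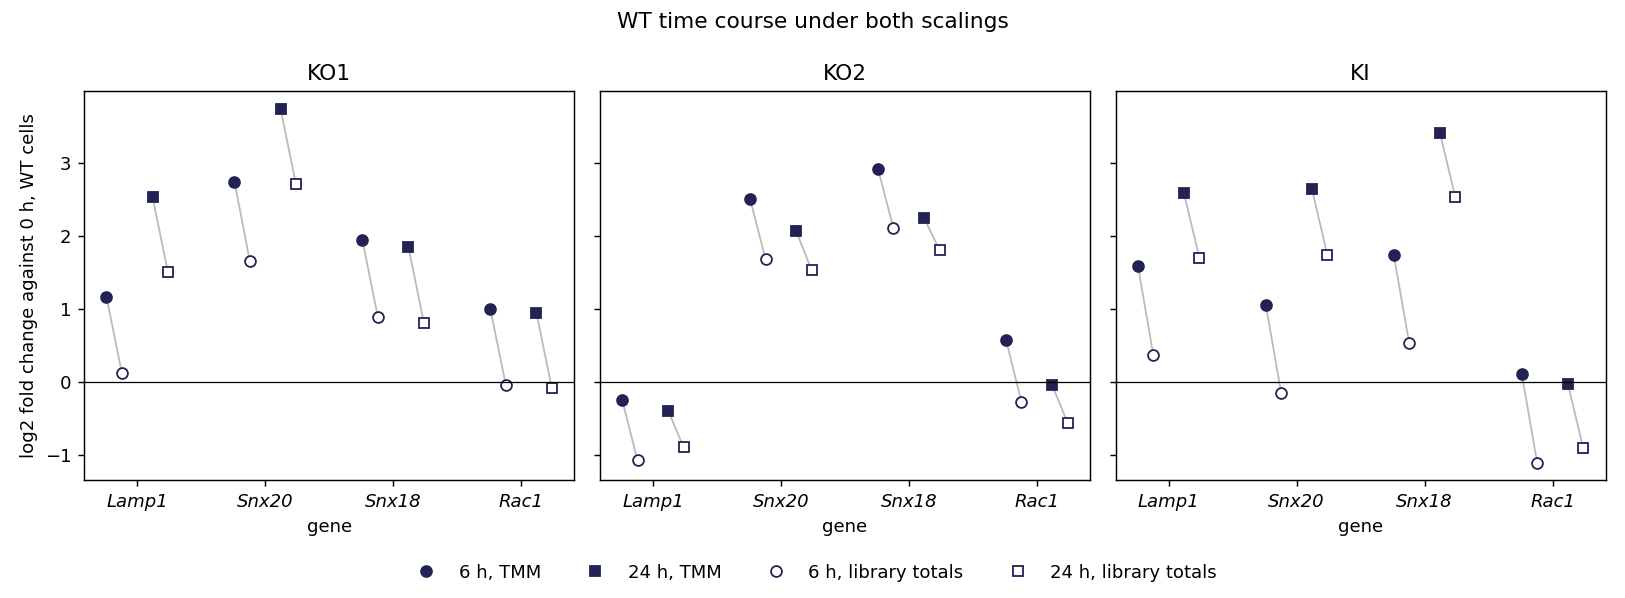
Log2 fold change at 6 h (circles) and 24 h (squares) against 0 h in WT cells of each cohort, under TMM scaling (filled) and library totals (open). Open symbols lie below the filled ones throughout. Rac1 crosses 0 in KO1 at both times and in KO2 and KI at 6 h, and Snx20 crosses 0 in KI at 6 h.

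Other genes of the same machinery were tested in F121A against KI WT, from lists drawn up by function. The shares of all KI genes called in either direction, 2.94%, 11.5% and 7.2% at 0, 6 and 24 h, are the background for each count. Of 26 other sorting nexins tested, 0, 2 and 5 rose and 0 fell at 0, 6 and 24 h by edgeR, which is below that share at 6 h and above it at 24 h. With library totals as scaling 3 were called at 24 h. DESeq2 called the same numbers, and at an unadjusted p under 0.05 there were 2, 5 and 8. Snx6 and Snx2, subunits of the SNX-BAR coat of retromer, rose at 6 h by 0.44 ± 0.10 and 0.43 ± 0.10 (edgeR adjusted p = 0.00224 and 0.00283). Snx1, Snx5, Snx6, Snx2 and Snx11 rose at 24 h, with Snx5 at 0.47 ± 0.09 (edgeR adjusted p = 6.9e-04). The list's median was -0.08, 0.11 and 0.15, beside 0.01, 0.02 and -0.00 for all genes. Of 27 other lysosomal membrane proteins, edgeR and DESeq2 called 0 at rest, with 6 at an unadjusted p under 0.05. By edgeR 2 rose and 1 fell at 6 h, and 2 rose at 24 h, near the share over all genes at both times. Cd164, a sialomucin, rose by 0.77 ± 0.12 at 6 h (edgeR adjusted p = 6.2e-06), and Mcoln1, the lysosomal calcium channel, fell by 0.57 (-0.57 ± 0.15, edgeR adjusted p = 0.00693). Their median was -0.11 at rest, when Lamp1 was 12.8 times as high.

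Rac3, the third Rac, rose at rest (1.05 ± 0.30, edgeR adjusted p = 0.0422) and at 6 h (1.83 ± 0.23, edgeR adjusted p = 3.1e-07). Of 20 Rac regulators, 4 rose at 6 h, among them the exchange factors Vav1 (0.56 ± 0.10, edgeR adjusted p = 5.5e-05) and Prex1 (0.51 ± 0.10, edgeR adjusted p = 5.8e-04), and at 24 h 2 rose and 1 fell, against the same 11.5% and 7.2% of all genes, with Vav3 at 1.01 ± 0.17 (edgeR adjusted p = 7.6e-05). Of 16 Rac effectors, Cybb, the catalytic subunit of the phagocyte oxidase, fell at rest (-0.44 ± 0.11, edgeR adjusted p = 0.0204, and 0.0679 without replicate 5). At 6 h and 24 h 2 effectors, Cyfip1 and Nckap1l, subunits of the WAVE complex that Rac activates, rose, which at 6 h is near the share of all genes, with Nckap1l at 0.38 ± 0.08 at 24 h (edgeR adjusted p = 7.3e-04). With library totals as scaling, no effector was called at rest and 1 at each later time, and 3 regulators were called at 6 h and 2 at 24 h. Of 10 partners of SNX18 and SNX20, 3 rose at 6 h, or 1 with library totals, with Rab11fip5 at 0.92 ± 0.24 (edgeR adjusted p = 0.00745), Atg9a at 0.48 ± 0.14 and Wasl at 0.45 ± 0.13. In KO1, edgeR and DESeq2 called 0 genes of these lists at each time, with 8, 2 and 3 of 102 at an unadjusted p under 0.05. In KO2 the direction of the sorting nexin calls turned with the scaling at 6 h, where 1 was higher and 4 lower under TMM. With library totals 7 were higher and 0 lower at 6 h. At rest 0 were higher under either scaling, with 2 lower under TMM and 1 under library totals. At 24 h 1 was higher and 1 lower under both.

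Over all libraries, the genes whose log2(CPM + 1) was most like that of Lamp1 were Zfand5, Dapk3 and Clptm1l, with Pearson r of 0.85, 0.76 and 0.76. Zfand5 codes for a ubiquitin-binding zinc finger protein and Dapk3 for a serine/threonine kinase. For Snx20 they were Dapk3, Ift57 and Trim14 (0.75, 0.74 and 0.74). Among those most like Rac1 were Clptm1l and AC087541.1 (0.79 and 0.77), and among those most like Snx18 were Triobp and Ccdc88b (0.80 and 0.79). Genes chosen for a high r with Lamp1 over all libraries tend to share its order of cohorts by that choice. Zfand5 had this order, with 143 CPM in resting F121A, 27.7 in KI WT, 161 in KO2 WT and 38.4 in KO1 WT. Clptm1l had it as well, at 45.3, 11, 61.8 and 26 CPM. Around group means, r with Lamp1 was 0.47 for Zfand5 and 0.39 for Clptm1l, and r of Clptm1l with Rac1 was 0.60. Among the 4 genes r over all libraries was highest for Snx20 with Snx18 (0.78) and Lamp1 with Snx20 (0.77) and lowest for Snx18 with Rac1 (0.31). These are descriptions over libraries that share cohort, time and preparation.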

How the data were processed

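For each of the 3 cohorts the authors deposited raw whole-number counts of every gene symbol in every library. The submitters' processing notes name TopHat, HTSeq and mm10, and versions are not given in the sources used here. Per the labels' protocols, libraries were made by Smart-Seq2 with an oligo-dT primer, which marks neither strand nor molecule, so PCR copies count as reads. Repeats of a KO1 culture were summed per time (n = 3), and each KO2 and KI library was a unit. CPM values use all counts in genes. Each cohort had 1 edgeR 4.0.16 quasi-likelihood fit (R 4.3.3) with TMM, filterByExpr and 6 group means, adjusted by Benjamini-Hochberg over 13693, 10794 and 11500 genes in KO1, KO2 and KI. A call is an adjusted p under 0.05, and standard errors were derived from each log2 fold change and its F statistic. The script was tested on simulated data. DESeq2 1.42.0 and voom in limma 3.58.1 were alternatives, with others given in the closing section. Library totals without TMM, removal of each library's GC trend and leaving out single KO2 libraries were added after seeing the data. GENCODE vM21 gave positions and lengths for 29042 of the 34573 symbols (84%). The 4 genes and the lists of other genes were chosen with earlier results of these data known. Named besides them are Becn1, Lyz2, the nearest family members, up to 3 called genes per list (all where 5 or fewer were called) and the 3 genes most like each of the 4. Some genes that this rule names, and 1 list of other genes, are not reported here. Where groups share numbers, a KO1 WT culture number marks the same culture at each time. Deviations of same-numbered WT cultures correlated at 0.172 to 0.516 between 0 h and 6 h and at -0.0707 to 0.342 between 0 h and 24 h.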

Additional observations from a re-analysis of the deposited data

Results flagged for a closer look

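In 5 of 48 sets of values (each of the 4 genes in each KO2 and KI group), 1 library stood far from the rest; chance alone flags about 1 in 20 such sets. Lamp1 was at 4003 CPM in KO2 KO replicate 1 at rest, and the same library held Rac1 at 270 CPM, the highest of its group in both. Snx20 was at 90.7 CPM in KO2 KO replicate 9 at rest. Snx18 was at 104 CPM in KI WT replicate 4 at 24 h, the library that sets the upper end of the WT range there. Rac1 was at 316 CPM in F121A replicate 5 at rest, and that library also had the highest preparation score of its group, 0.357. The genotype difference of Rac1 in KO2 differed between times (joint edgeR test, adjusted p = 0.0439), and the share of all genes that passed is not given here.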

How the results depend on the processing

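Of the log2 fold changes of the 4 genes in KO1 and KO2 under other settings, 631 kept direction and side of the threshold, 18 passed it newly, 21 no longer passed and 6 reversed. In KI 204 moved by less than the spread between libraries and 16 by more. The cause of these shifts was not tested. With library totals in place of TMM, Rac1 in WT cells reversed to -0.04 at 6 h and -0.09 at 24 h in KO1 and to -0.28 at 6 h in KO2, and 2 of 4 genes were called in KO1 WT at 6 h. With the GC trend removed, Lamp1 in KO2 WT reversed to 0.53 at 6 h and Rac1 to 0.28 at 24 h. With the preparation score as covariate, a library's position on the main axis of variation between KO1 repeats, Snx20 in KO2 KO at 6 h reversed to 0.09. The count of the 4 genes called by genotype in KO1 at rest was 1 without the filter on low counts. In KO2 at rest it was 0 with DESeq2 and 0 with the GC trend removed, and 0 to 1 when single libraries were left out. In KO2 at 6 h it was 3 without the filter and 2 with the preparation score, library totals, the GC trend removed or libraries summed in threes, and 1 to 2 without single libraries. In KO2 at 24 h it was 0 with library totals and 0 summed in threes, and 0 to 1 without single libraries, with 0 only without WT replicate 9. Rac1 in F121A at rest was at 1.16 without replicate 5. Numbers of KO2 and KI libraries did not pair them throughout, and with the replicate block 2 genes were called in KO2 at 6 h, with Rac1 at -0.49 (edgeR adjusted p = 0.0399), while no other call of the 4 genes changed. In the KO1 WT time course the replicate block gave 7957 calls over all genes at 6 h, against 7767. Over all genes in KO1, edgeR called 3, 3 and 1 by genotype at 0, 6 and 24 h, DESeq2 32, 5 and 6, edgeR without the filter 154, 72 and 86, voom on single libraries 264, 35 and 78, edgeR on only the 2 groups compared 0, 0 and 3, and edgeR with the preparation score 73 at rest. In KO2 the calls that were higher were 414 of 894 at rest and 823 of 1659 at 6 h, against 1008 of 1173 and 2186 of 2522 with library totals and 218 of 1527 and 298 of 1999 with the GC trend removed, and libraries summed in threes gave 564 calls at rest. With 3 cultures in KO1 and at least 3 counts behind the lowest Snx20 value, changes of Snx20 there are measured with the least precision.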
